A study of Mus musculus with 6 samples.

Results

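The WAP four-disulfide core (WFDC) family is a group of genes for small secreted proteins, most of which carry a whey acidic protein (WAP) domain. Here 9 of its mouse genes, Wfdc1, Wfdc2, Wfdc3, Wfdc5, Wfdc9, Wfdc12, Wfdc13, Wfdc15b and Slpi, were followed in an astrocyte line with and without pulsed radiofrequency. They were chosen by symbol with earlier results of the same arrays known, so their differences between the groups are a description and no p-value is given for them. The transcript accession that the array files give for each probe was looked up in RefSeq, which assigned 13 of 56605 probes to these genes, 9 of the 22911 genes named on the array. All cells were C8-D1A, a cloned mouse astrocyte line obtained from ATCC, grown in serum and then held without serum before use. The PRF group had 3 samples of cells given pulsed radiofrequency, in which an electric field is applied in short high-frequency bursts. The control group had 3 samples of the same line, kept the same way and not treated. The labels describe independent experiments in 1 cloned line, so the spread given below is that of this line. The strength and length of the stimulation, and when RNA was taken after it, were not stated in the labels used here.

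The WAP domain is held together by disulfide bonds, and in several members it blocks serine proteases. Slpi, the secretory leukocyte peptidase inhibitor, inhibits neutrophil elastase and cathepsin G, is made by epithelia and phagocytes, and is also known to restrain NF-kB signalling in macrophages. Most genes of the family lie in a cluster on mouse chromosome 2 and are best known from epithelia and the male reproductive tract. No member is a classical astrocyte gene.

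Within the family PRF cells showed both directions. Wfdc9 was detected in PRF cells only, 23.1-fold above the dimmest probes that the control arrays marked as detected. Wfdc3 was higher by 36.3-fold with one probe and 2.53-fold with the other. Slpi was 2.21-fold higher with one probe, while its other probe, at 1.18-fold, was not called and its groups overlapped. Wfdc13 was 3.54-fold lower in PRF cells. The fitted differences of these called probes were smaller under another background correction (normexp with an offset). Wfdc1 differed little, and Wfdc2, Wfdc5, Wfdc12 and Wfdc15b were dim or undetected on most arrays.

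Promoter sequences were found for 6 of the 9 members in the RefSeq promoter table (assembly GRCm38.p6), which holds 250 bases before and 50 after a transcript's start. Those of Wfdc3, Wfdc9 and Slpi are shown because these genes were the members higher in PRF cells; Wfdc1, Wfdc5 and Wfdc13 are named only. All of them lie on the minus strand and are written 5′ to 3′ in the direction of transcription, with capitals marking the motif matches described next.
Wfdc3 promoter, chr2:164743218-164743517: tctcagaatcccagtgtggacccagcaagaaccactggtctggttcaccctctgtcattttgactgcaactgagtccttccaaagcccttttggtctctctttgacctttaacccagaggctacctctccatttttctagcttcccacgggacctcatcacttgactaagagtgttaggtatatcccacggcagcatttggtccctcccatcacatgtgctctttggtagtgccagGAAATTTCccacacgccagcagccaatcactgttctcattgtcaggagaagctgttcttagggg
Wfdc9 promoter, chr2:164654917-164655216: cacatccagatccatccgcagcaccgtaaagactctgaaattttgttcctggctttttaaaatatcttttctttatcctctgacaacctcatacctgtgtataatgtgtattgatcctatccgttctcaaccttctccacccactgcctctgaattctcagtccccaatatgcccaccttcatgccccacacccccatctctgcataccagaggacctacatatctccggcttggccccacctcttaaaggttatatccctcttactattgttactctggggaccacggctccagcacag
Slpi promoter, chr2:164356458-164356757: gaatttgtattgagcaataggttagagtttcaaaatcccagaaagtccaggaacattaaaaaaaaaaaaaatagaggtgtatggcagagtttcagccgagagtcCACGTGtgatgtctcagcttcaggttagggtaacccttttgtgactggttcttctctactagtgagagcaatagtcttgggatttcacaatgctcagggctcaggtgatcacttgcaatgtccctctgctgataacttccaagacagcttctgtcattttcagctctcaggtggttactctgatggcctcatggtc
The capitals in the Wfdc3 promoter are a match, GAAATTTC, to the heat shock element core GAANNTTC, at positions -14 to -7 relative to the start. The capitals in the Slpi promoter are the E-box CACGTG, at positions -146 to -141. Both strands were searched for these and for the letters of an AP-1 site (TGANTCA), a CRE (TGACGTCA), a TATA box (TATAAA) and an EGR site (GCGGGGGCG), none of which occurred in a member's promoter. None of the searched letters occurred in the window of Wfdc9. Among all 32851 promoters of the table, 7.86% held the heat shock element core, 7.15% the E-box, 7.81% the AP-1 letters, 1.79% the CRE, 13.6% the TATA letters and 2.91% the EGR letters. The GC content was 50% for Wfdc3, 47.3% for Wfdc9 and 43.3% for Slpi, against a median of 52.7% over all promoters. A letter match describes the sequence and is not evidence of a bound site.

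Signals were compared as levels, the log2 processed signal of a probe minus the 75th percentile of its array, so that 0 is a bright probe and values near -8 lie at the floor of the scan. The scanner software marks each spot that stands clear of its local background, and a probe was tested when it was so marked on all 3 PRF arrays or on all 3 control arrays. Of the probes, 35146 to 36188 were marked on the PRF arrays and 33669 to 34637 on the control arrays, and 34838 were tested. The limma fit called 10833 of them different at an adjusted p of 0.05, of which 59.2% were higher in PRF cells; quantile normalization made that 41.4%, spike-in scaling 29.9%. Fewer cells of a type and less RNA per cell cannot be told apart in such bulk samples. Of 8 astrocyte markers, 6 were tested and none differed at the threshold, while Slc1a3 and Gja1, markers of the labelled cell type, stood clear of background on no array.

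Of the 13 member probes, 6 were well above background on all 6 arrays and 5 on no array. The 7 tested probes belonged to 5 genes. Of these 5 genes 3 were called higher in PRF cells, where 16.3% of the 15069 tested genes were, and 1 was called lower, where 13.5% of all tested genes were; 29.8% of all tested genes were called in either direction. By probe, 4 of the 7 were called higher (18.4% of all tested probes) and 1 lower (12.7%), where 31.1% of all tested probes were called either way. The PRF and control values did not overlap for 5 of the 7, as for 50.2% of all tested probes. Because the members were chosen on this contrast, nothing is read from these counts. The plot of levels by array shows every probe of the family.

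**Figure D1:**
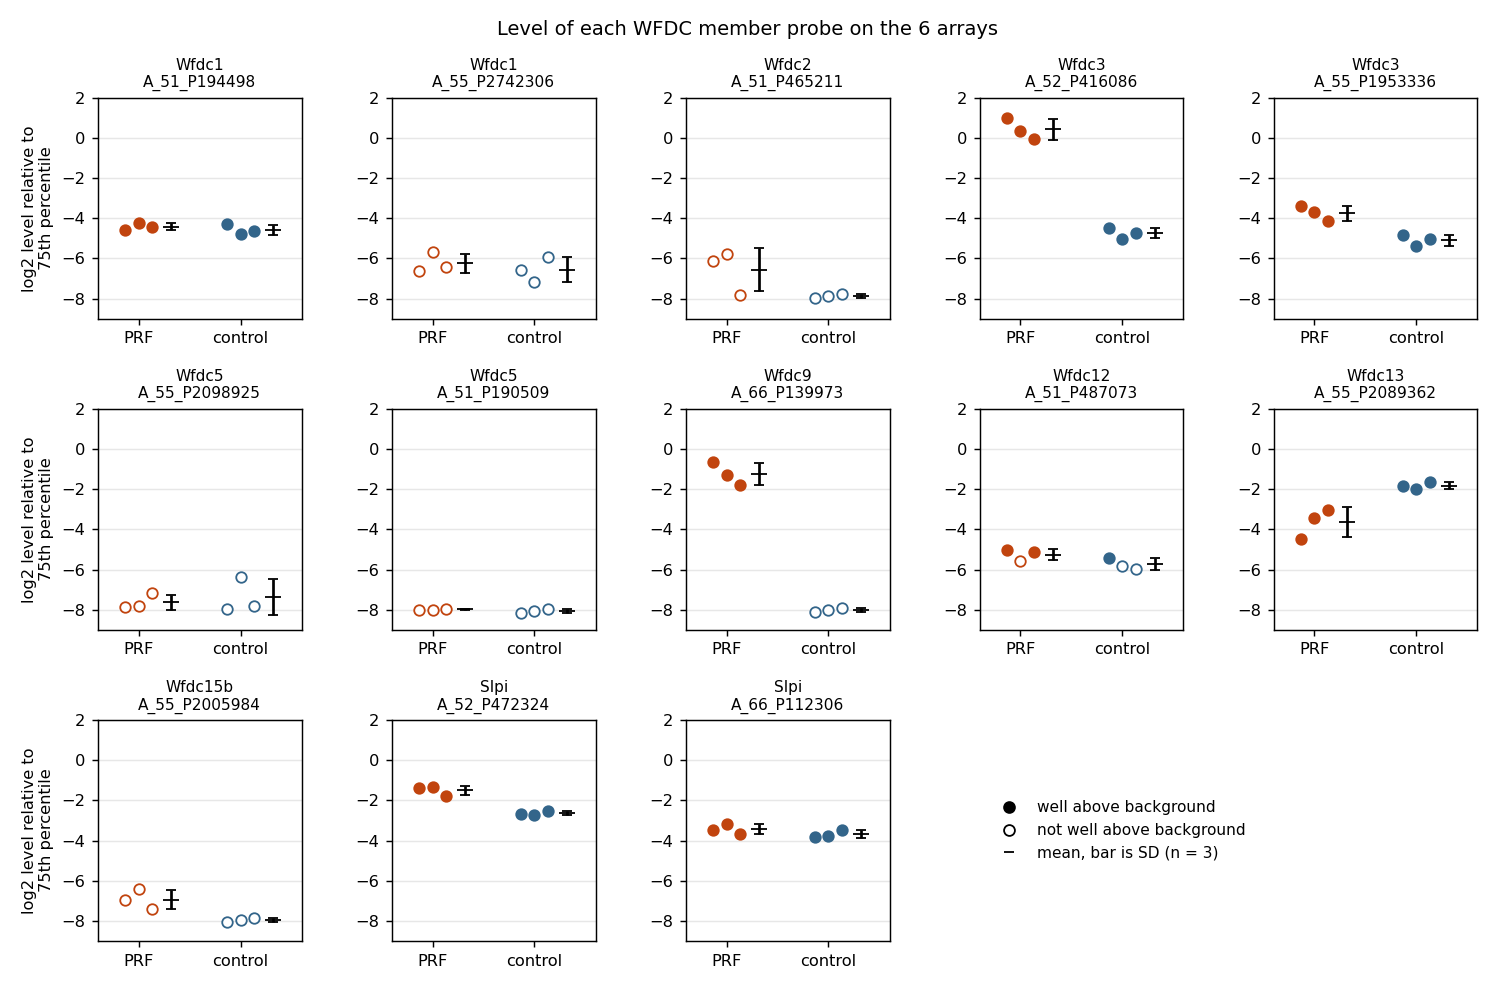
Level of each WFDC member probe (log2, relative to the 75th percentile of its array) on the 3 PRF and 3 control arrays, with the mean and SD beside each group; filled points were well above background, open points were not. The PRF points lie wholly above the control points for both Wfdc3 probes, Wfdc9, Wfdc15b and Slpi A_52_P472324, and wholly below them for Wfdc13.

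Wfdc3 encodes a WAP-domain protein whose function is little studied. Its probe A_52_P416086 had levels of 1.0, 0.36 and -0.04 on the PRF arrays, against -4.50, -5.01 and -4.72 on the control arrays. Every PRF array lay more than 4 log2 units above every control array, and the probe was well above background on all 6, so both groups were measured. In the deposited signal these levels were 1268, 697 and 539 in PRF cells and 29.9, 19.7 and 22.6 in control cells. The mean level was 0.44 ± 0.52 in PRF cells and -4.74 ± 0.26 in control cells (SD, n = 3 each), a difference of 5.18 with a standard error (SE) of 0.27, or 36.3-fold. Among the 1757 higher genes that were well above background on all 6 arrays, Wfdc3 stood 5th by size.

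The second Wfdc3 probe, A_55_P1953336, moved the same way by much less. Its levels were -3.40, -3.70 and -4.16 on the PRF arrays, against -4.84, -5.39 and -5.04 on the control arrays. The groups did not overlap, all 6 spots were well above background, and the difference was 1.34 (SE 0.22), or 2.53-fold. The 2 probes thus disagreed on the size of the Wfdc3 change, and which part of the transcript each one binds was not analysed here.

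Wfdc9 is another WAP-domain gene of the cluster, with no function settled enough to give. Its levels were -0.65, -1.29 and -1.77 on the PRF arrays, against -8.12, -8.02 and -7.91 on the control arrays. The probe was well above background on all 3 PRF arrays and on none of the control arrays, so control cells gave only an upper limit. The deposited signal was 404, 222 and 162 in PRF cells and 2.43, 2.45 and 2.47 in control cells. Against the dimmest probe that each control array still marked as detected, Wfdc9 was 23.1-fold higher in PRF cells. This limit is not a strict minimum, because some unmarked spots were brighter. On control replicate 1 the unmarked probe of Plk5, a kinase gene, stood at -5.63 and the dimmest marked probe at -5.89. Under the normexp background correction the Wfdc9 difference was 2.45 log2 units, a smaller fold than this limit. The fitted difference of 6.78 (SE 0.27), the 2nd largest among the 2455 higher genes, rests on control values at the floor and is not a measured fold. Of 21071 probes that no control array marked as detected, 1133 (5.38%) were marked on every PRF array, as Wfdc9 was.

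Slpi is the best studied protease inhibitor of the family. Its probe A_52_P472324 had levels of -1.37, -1.34 and -1.76 on the PRF arrays, against -2.67, -2.72 and -2.53 on the control arrays. All 3 PRF arrays lay above all 3 control arrays. The mean was -1.49 ± 0.23 in PRF cells and -2.64 ± 0.10 in control cells (SD, n = 3 each), a difference of 1.14 (SE 0.13), or 2.21-fold. The other Slpi probe, A_66_P112306, had levels of -3.47, -3.18 and -3.68 on the PRF arrays, against -3.82, -3.77 and -3.47 on the control arrays. Its groups overlapped and its difference of 0.24 (SE 0.15) was not called, so the higher Slpi level was seen by 1 of its 2 probes.

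Wfdc13 went the other way. Its levels were -4.48, -3.45 and -3.01 on the PRF arrays, against -1.86, -1.97 and -1.64 on the control arrays. Every PRF array lay below every control array by at least 1.04, with all 6 spots well above background. The mean was -3.65 ± 0.75 in PRF cells and -1.82 ± 0.17 in control cells (SD, n = 3 each), a difference of -1.82 (SE 0.36), or 3.54-fold lower in PRF cells. Large falls were called less often than large rises: 78 of the 15069 tested genes (0.518%) were at least 2-fold lower and 1214 (8.06%) at least 2-fold higher. Only 1757 of the 2455 higher genes were well above background on all 6 arrays, so some rises rest on control values at background, as for Wfdc9. For the 2030 lower genes the count was 1999. The share of called probes that were higher also moved with scaling, from 59.2% as reported to 29.9% with spike-in scaling. Wfdc13 stood 3rd of the 2030 lower genes by size, and first of the 1999 that were well above background on all 6 arrays.

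Wfdc1 encodes a secreted growth inhibitor of the prostate stroma known as ps20, and lies apart from the cluster, on chromosome 8. Its probe A_51_P194498 had levels of -4.59, -4.23 and -4.45 on the PRF arrays, against -4.29, -4.79 and -4.65 on the control arrays. All 6 spots were well above background and the groups overlapped, with a difference of 0.15 (SE 0.15) that was not called. Its other probe, A_55_P2742306, stood clear of background on no array, at -6.61, -5.69 and -6.43 on the PRF arrays and -6.57, -7.19 and -5.91 on the control arrays.

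Wfdc12, an antibacterial WAP protein in mouse, was at the edge of detection. Its levels were -5.04, -5.58 and -5.14 on the PRF arrays, against -5.41, -5.84 and -5.97 on the control arrays. It was well above background on 2 PRF arrays and 1 control array, the groups overlapped, and it was not tested. Wfdc15b, another antibacterial protein in mouse, had levels of -6.98, -6.44 and -7.40 on the PRF arrays, against -8.06, -7.96 and -7.84 on the control arrays. Those groups did not overlap, but no spot was well above background, so no fold is given. Wfdc2, the gene of the human ovarian cancer marker HE4, had levels of -6.10, -5.78 and -7.80 on the PRF arrays and -7.96, -7.89 and -7.75 on the control arrays, with overlapping groups and no spot well above background. The 2 probes of Wfdc5 likewise stayed at background on every array, and their groups overlapped, with levels between -8.01 and -7.19 on the PRF arrays and between -8.17 and -6.35 on the control arrays.

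The PRF arrays also differed among themselves. PRF replicate 1 lay farthest from the control mean for Wfdc3, by 5.74 against 5.10 and 4.71 for replicates 2 and 3 (A_52_P416086), and for Wfdc9, by 7.37 against 6.72 and 6.25. It was also farthest for Wfdc13, at -2.66 against -1.62 and -1.19. The array that was highest for Wfdc3 and Wfdc9 was therefore the lowest for Wfdc13. Slpi did not share this order, at 1.26, 1.29 and 0.88 for replicates 1 to 3. The order was common on these arrays: PRF replicate 1 was farthest in 951 of the 1214 genes called at least 2-fold higher (78.3%) and in 59 of the 78 called at least 2-fold lower (75.6%).

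Without PRF replicate 1 the difference was 4.90 for Wfdc3 (A_52_P416086), 6.48 for Wfdc9 and -1.40 for Wfdc13. All arrays came from 1 slide, in 2 rows that each held both groups. Within the first row, with 1 PRF and 2 control arrays, the differences were 4.96 for Wfdc3, 6.72 for Wfdc9, 1.25 for Slpi (A_52_P472324) and -1.70 for Wfdc13. Within the second row, with 2 PRF arrays and 1 control array, they were 5.50 for Wfdc3, 6.81 for Wfdc9, 1.15 for Slpi and -1.77 for Wfdc13. Each of these values kept the sign and the rough size of the value over all 6 arrays. The normexp setting moved the sizes more. It started from the median signal in place of the processed signal, corrected its background and added an offset of 50, which compresses the differences of dim probes, so several steps changed at once. Under it Wfdc3 stood at 3.29 and 0.50 for its 2 probes, Wfdc9 at 2.45, Slpi at 0.83 and Wfdc13 at -1.06. The second Slpi probe and Wfdc1, which were not called, changed sign under quantile normalization, at -0.05 and -0.23. Wfdc1 also changed sign under spike-in scaling, at -0.045.

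**Figure D2:**
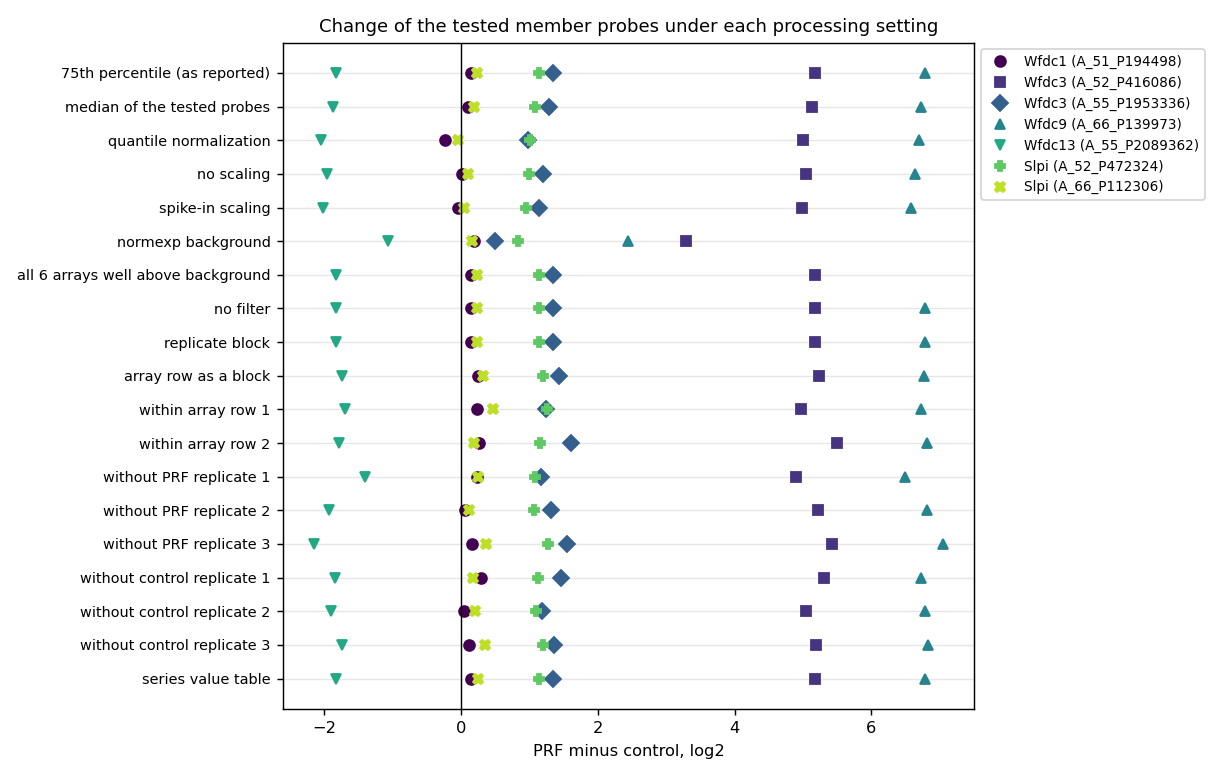
PRF minus control difference (log2) of the 7 tested member probes as reported and under each of 18 other processing settings, 1 symbol per probe. Wfdc13 stays left of 0 and Wfdc3, Wfdc9 and Slpi A_52_P472324 stay right of it in each setting shown, with the smallest sizes under normexp with an offset; Wfdc9 has no value when all 6 arrays must be well above background.

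Genes whose profile over the 6 arrays, each centred on its own mean, differed least from that of Wfdc3 were Kcnk7, a potassium channel gene (root mean square difference 0.154), Plk5, a polo-like kinase gene (0.172), and Ccr7, a chemokine receptor gene (0.173). Kcnk7 was 4.93 log2 units higher in PRF cells, being well above background on 3 PRF and 2 control arrays. Against the limit used for Wfdc9, or the gene's own control level where that was brighter, Plk5 was 32.7-fold and Ccr7 8.14-fold higher in PRF cells. The genes nearest Wfdc13 were Olfr339, an olfactory receptor gene (0.174), Mc3r, a melanocortin receptor gene (0.238), and Tas2r113, a taste receptor gene (0.258). The fitted differences were -1.57 for Olfr339, -1.81 for Mc3r and -1.36 for Tas2r113. On the PRF arrays Olfr339 stood clear of background on 2 and Mc3r on 1, and both did on all 3 control arrays, so the sizes of these 2 rest partly on PRF values at background. Tas2r113 was well above background on all 6 arrays. These rankings cover 15065 genes and 6 arrays that fall into 2 groups, and mainly rank genes by the size of their PRF difference.

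Further genes with a WAP domain, and Spint4 of the same cluster, were listed by name, and 15 of 16 had a probe. Only 5 of these genes were tested: 1 rose, none fell, and 4 did not pass, with a median difference of 0.18 against -0.01 over all tested genes. Over all tested genes 16.3% were called higher and 13.5% lower. The one that rose was Wfikkn1, whose secreted product carries several inhibitor domains and binds myostatin. Its levels were -1.49, -1.64 and -1.72 on the PRF arrays, against -3.18, -3.09 and -2.82 on the control arrays. The groups did not overlap, and the difference of 1.41 (SE 0.12) had an adjusted p of 4.98e-04 in the limma fit. Its paralogue Wfikkn2 was at 0.51 (SE 0.21, limma adjusted p 0.117).

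Wfdc8 gave different answers by probe, and each of its probes is assigned to a different transcript of the gene. Probe A_55_P2042577 had levels of -4.24, -5.19 and -5.09 on the PRF arrays, all well above background, against -7.93, -7.90 and -7.62 on the control arrays, none of which was. Against the limit used for Wfdc9 it was 1.91-fold higher in PRF cells (limma adjusted p of the fitted difference 5.88e-04). Under the normexp background correction the difference of this probe was 0.48 log2 units, a smaller fold than this limit. Probe A_55_P2146768, the brighter one over all arrays and the one that stood for the gene, did not pass, at 0.18 (limma adjusted p 0.328), and the remaining probe stayed at background throughout. Wfdc15a (0.03, adjusted p 0.918) and Wfdc18, a mammary gland gene (0.10, adjusted p 0.453), did not pass the limma test. No array held Wfdc6a, Wfdc6b, Wfdc10, Wfdc11, Wfdc17, Wfdc21, Eppin, Wap or Spint4 well above background, and 1 PRF array held Wfdc16 so. The plot of changes by probe sets these genes beside the members.

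**Figure D3:**
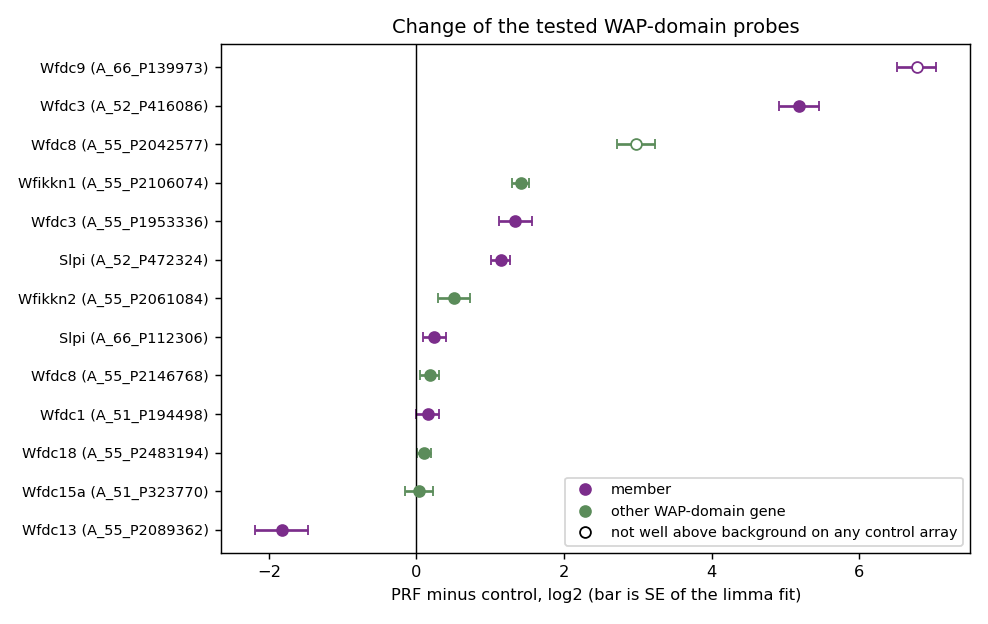
PRF minus control difference (log2, with the SE of the limma fit) of every tested probe of the members and of the other WAP-domain genes; open points stayed at background in all control samples, so their position is not a measured fold. Wfdc9 and Wfdc3 (A_52_P416086) lie farthest to the right at 6.78 and 5.18, and Wfdc13 alone lies clearly left of 0, at -1.82.

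Along chromosome 2 the tested members with the largest differences, Wfdc9, Wfdc3 and Wfdc13, sit close together. Of the other members there only Slpi was tested, so no pattern of position is read from this. In the RefSeq order Wfdc9 is followed by Wfdc10, Wfdc11, Wfdc13, Spint4, Spint5 and then Wfdc3. Wfdc13, lower in PRF cells, was thus parted by 2 genes from Wfdc9 and by 2 genes from Wfdc3, both higher in PRF cells. None of the 4 genes between them stood clear of background on any array. The gene after Wfdc3, Dnttip1, was at -0.05 (limma adjusted p 0.572).

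Of 42 genes outside the family among the 5 on each side of a member, 31 had a probe and 18 were tested. In the limma fit 3 rose, 2 fell and 13 did not pass, with a median of -0.04. For comparison, 29.8% of all tested genes were called in either direction. Tnnc2, the fast skeletal troponin C gene, rose by 1.29 (SE 0.16, limma adjusted p 0.00195). The other 4 are named after their values were seen, because they are so few. Pabpc1l, a poly(A)-binding protein gene, rose by 0.90 (SE 0.08, limma adjusted p 5.71e-04). Matn4, a matrix protein gene, rose by 0.49 (SE 0.10, limma adjusted p 0.0130), a call lost without PRF replicate 2 (adjusted p 0.0509), without scaling, and with spike-in scaling. Klhl36, near Wfdc1 on chromosome 8, fell by 0.66 (SE 0.14, limma adjusted p 0.0162) and Snx21 by 0.29 (SE 0.08, limma adjusted p 0.0317). The Klhl36 call was lost in 3 of the 6 fits that leave out 1 array, and the Snx21 call in 5.

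**Figure D4:**
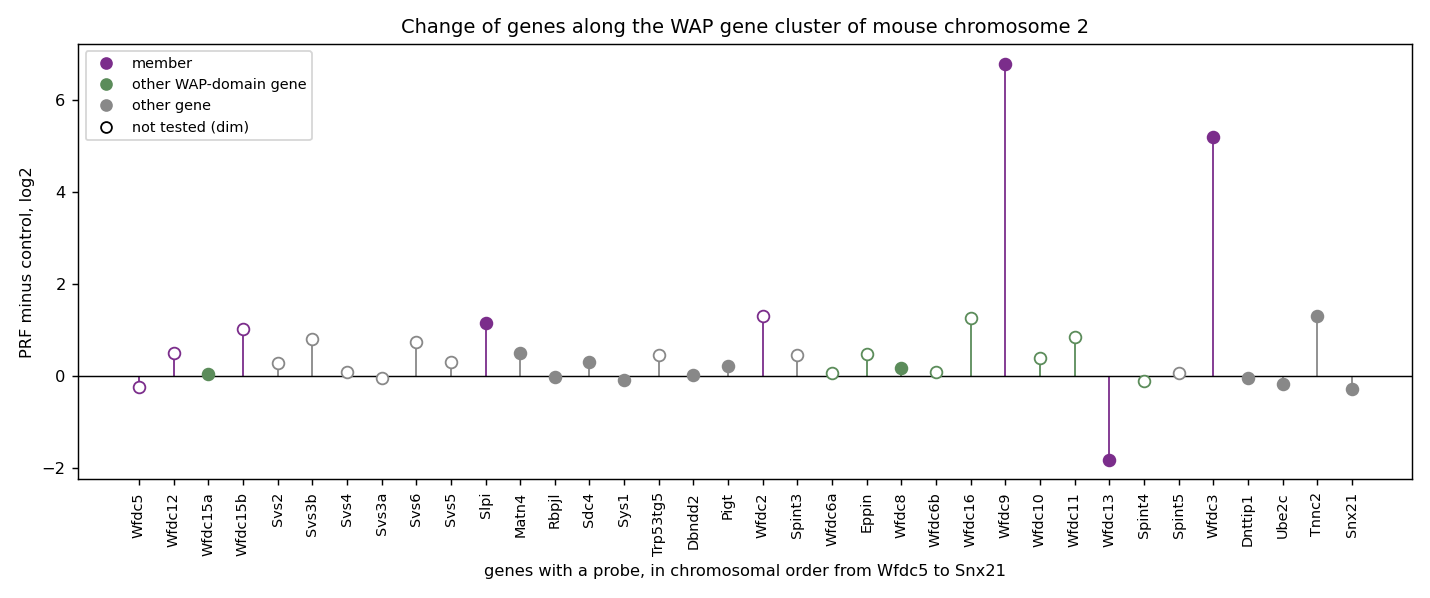
PRF minus control difference (log2) of the genes with a probe along mouse chromosome 2 from Wfdc5 to Snx21, evenly spaced in chromosomal order, each by its representative probe; open points were too dim to be tested. Wfdc9 at 6.78 and Wfdc3 at 5.18 stand on either side of Wfdc13 at -1.82, and 2 of the 10 tested genes outside the family were called higher and 1 lower. Over all tested genes 16.3% were called higher and 13.5% lower.

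A list of 15 serine protease genes was also read. It includes targets of Slpi, but not every gene on it is an established target of a WAP inhibitor. Of the 15, 14 had a probe and 7 were tested. Of these 7, 1 rose and none fell, where 16.3% of all tested genes rose and 13.5% fell. The median was -0.0048. Prss23, a secreted serine protease gene, rose by 0.50 (SE 0.11, limma adjusted p 0.0172), a call lost without control replicate 2 or 3, without scaling and with spike-in scaling. Elane, neutrophil elastase and the main target of Slpi, was at 0.03 (limma adjusted p 0.890). Ctsg, cathepsin G, stood clear of background on no array, and Prtn3 on 1 PRF array. Plau, the urokinase gene, named after its values were seen, had levels of -4.86, -4.54 and -5.79 on the PRF arrays, against -8.06, -7.96 and -7.26 on the control arrays. Its groups did not overlap, but it stood clear of background on 2 PRF arrays and no control array, so it was not tested.

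Of 32 other protease inhibitor genes 23 were tested: 5 rose, 3 fell and 15 did not pass, with a median of 0.05. Over all tested genes 16.3% rose and 13.5% fell. Those that rose include Tfpi, the tissue factor pathway inhibitor, by 0.81 (SE 0.17, limma adjusted p 0.0150) and Serpinc1, antithrombin, by 0.50 (SE 0.10, adjusted p 0.0151). Reck, a membrane-anchored metalloprotease inhibitor, fell by 0.53 (SE 0.09, limma adjusted p 0.00584). Serpinb8 (-0.37, adjusted p 0.0278) and Serpini1, neuroserpin (-0.29, adjusted p 0.0475), fell by less. Of these 5 calls only that of Reck held with each array left out in turn; Tfpi was lost in 1 such fit, Serpinc1 in 2, Serpinb8 in 5 and Serpini1 in 6. The calls of Serpinc1 and Tfpi were also lost under some scalings. Serpinb9 (0.32, limma adjusted p 0.0366) and Cst3, cystatin C (0.30, limma adjusted p 0.0167), also rose, by less; these calls were lost in 4 and 3 of the 6 fits, and under some scalings. Tfpi, Serpinb8, Serpini1 and Cst3 each had 1 other tested probe, not given here, so their changes are those of 1 probe. Serpina3n, a reactive astrocyte marker, was at 0.15 (limma adjusted p 0.154).

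Of 18 secreted antimicrobial genes 8 were tested: 3 rose, 1 fell and 4 did not pass, with a median of -0.08, and 9 stayed at background throughout. The shares over all tested genes were 16.3% higher and 13.5% lower. S100a8, a calcium-binding protein of phagocytes, rose by 1.80 (SE 0.16, limma adjusted p 6.90e-04), and Camp, the cathelicidin gene, rose by 0.72 (SE 0.13, limma adjusted p 0.00781). Pglyrp1, a peptidoglycan recognition protein gene, was 1.71-fold higher in PRF cells against the limit used for Wfdc9. Its call (limma adjusted p 0.0235) was lost in 3 of the 6 fits that leave out an array and under quantile normalization. Chil3, a chitinase-like protein gene of macrophages, fell by 1.41 (SE 0.21, limma adjusted p 0.00435) and was well above background on 2 PRF and 3 control arrays. Lcn2, a siderophore-binding protein of reactive astrocytes, was at -0.05 (limma adjusted p 0.786).

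WFDC genes are best known from epithelia and the male reproductive tract, and Slpi also from phagocytes, so markers of those cells were read on the same arrays. The counts below stand beside 16.3% of all tested genes called higher and 13.5% called lower. Of 10 epithelial markers 5 were tested and 1 rose, and the other 5, Epcam among them, stood clear of background on no array. The one that rose was Cdh1, E-cadherin, at -2.39 ± 0.54 in PRF cells and -7.34 ± 0.68 in control cells (SD, n = 3 each). It was well above background on the 3 PRF arrays and on no control array. Against the limit used for Wfdc9, which is not a strict minimum, Cdh1 was 10.4-fold higher in PRF cells (limma adjusted p of the fitted difference 4.70e-04). Under the normexp background correction the Cdh1 difference was a smaller fold than this limit. The summed level of the epithelial markers, here the linear signal relative to the 75th percentile added over 1 probe a gene, was 0.335 to 0.468 on the PRF arrays and 0.160 to 0.218 on the control arrays. Without Cdh1 it was 0.173 to 0.190 on the PRF arrays, within the 0.149 to 0.213 of the control arrays. Of 5 neutrophil markers with a probe 3 were tested, and S100a8 and Mpo rose while Elane did not pass. S100a9 and Cxcr2 stood clear of background on no array, and Mpo did so on 3 PRF arrays and 1 control array. The Mpo call (1.10, limma adjusted p 0.0252) was lost in 4 of the 6 fits that leave out an array, as well as under quantile normalization and without scaling. The summed level of the neutrophil markers was 0.652 to 0.855 on the PRF arrays and 0.501 to 0.650 on the control arrays. Most of it came from Elane, which was not called. Of 6 microglial and macrophage markers 2 were tested and Itgam rose by 0.86 (limma adjusted p 0.00406), while Aif1, Cx3cr1, Ptprc and P2ry12 stayed at background throughout. Itgam had 1 other tested probe, not given here. That list's summed level, 13 to 17.7 on the PRF arrays and 8.64 to 9.06 on the control arrays, was nearly all Itgam. Without Itgam it was 0.470 to 0.521 on the PRF arrays and 0.409 to 0.453 on the control arrays. Of 6 markers of male germ and epididymal cells 4 stayed at background throughout and 1, Ddx4, rose by 0.52 (limma adjusted p 0.0455), a call lost in 5 of the 6 such fits and under each other scaling, with a summed level of 0.319 to 0.517 on the PRF arrays and 0.251 to 0.388 on the control arrays. Of 5 neuronal markers 3 were tested and Snap25 rose by 0.97 (limma adjusted p 0.0127). Map2 at 0.07 and Tubb3 at -0.14 did not pass. Rbfox3 stood clear of background on no array, and Syt1 on 1 PRF array. The summed level of the neuronal markers was 23.8 to 28.3 on the PRF arrays and 22.7 to 25.6 on the control arrays. Of 4 oligodendrocyte markers Mbp rose by 0.99 (limma adjusted p 0.00847), while Mog and Sox10 fell by 0.40 and 0.36 (adjusted p 0.0202 and 0.0451), calls lost in 4 and 5 of those fits; the summed level was 125 to 140 on the PRF arrays and 135 to 145 on the control arrays. For the 8 astrocyte markers the summed level was 64.1 to 67.7 on the PRF arrays and 57.2 to 62.9 on the control arrays. It was nearly all S100b, which was not called (0.13, limma adjusted p 0.185). The part of these markers in the WFDC differences was not tested.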

How the data were processed

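The deposited intensity values are, per the file headers, output of Agilent Feature Extraction 10.7.3.1 for 6 one-colour arrays. They hold a background-corrected processed signal per spot and flags, with no scaling between arrays. The authors' deposited series table held the same intensity within a relative tolerance of 0.0001 for at least 99.98% of probes. It was used as an alternative. The labels used here state no further step of the authors.

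Control spots and outlier spots were left out, spots of a probe were averaged, and the deposited intensity was turned to log2 with each array's 75th percentile subtracted. limma 3.58.1 (lmFit, eBayes; R 4.3.3) was fitted on all tested probes with group as the only term and Benjamini-Hochberg adjustment over them. The code was tested on simulated data. Among several probes, the tested probe with the highest mean stood for its gene. Symbols came from RefSeq transcripts of GRCm38.p6, which named 32994 probes and left 23611 unnamed. The array design refers to an older build, so besides these symbols only gene order and promoter sequences were taken from RefSeq. With 3 arrays in each group, precision is limited by their number.

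The members and lists were chosen with earlier results of these data known. Named were all members and other WAP-domain genes, up to 3 genes each way per list by size among called genes well above background on all 6 arrays, fixed genes (Elane, Ctsg, Prtn3, Serpina3n, Lcn2, Epcam, Cdh1; a further one is not reported here), called neighbours of at least 2-fold, and the 3 genes most alike to Wfdc3 and to Wfdc13. Mpo, Ddx4, Serpinb9, Cst3, Pglyrp1, Chil3, Plau and the smaller neighbour changes fall outside this rule and were named after their values were seen. Alternatives covered scaling, background correction, filters, probe choice, array row, replicate number and each array left out. Sums of markers without Cdh1 or Itgam were added after seeing the data.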

Additional observations from a re-analysis of the deposited data

How the results depend on the processing

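The 5 called member probes, chosen on this contrast, had the same sign in each setting that gave a value, which is a description and no support for them. They were called in each such setting except within the second array row. Requiring all 6 arrays above background left Wfdc9 untested (4 calls), and without a filter 6 were called, Wfdc15b being added. Within that row, with 2 PRF arrays and 1 control array, limma called 0 probes of any kind (6663 at an unadjusted p under 0.05), so 0 members, 0 other WAP-domain genes, 0 list genes and 0 neighbours. Within the first row, with 1 PRF array and 2 control arrays, it called 3266 of all probes, against 10833 over both, with 0 other WAP-domain genes, 4 list genes (13 as reported) and 1 neighbour (5 as reported). Leaving out each array gave 7245 to 10928 probes, 1 to 2 other WAP-domain genes, 6 to 12 list genes and 2 to 5 neighbours. The 2nd other WAP-domain gene was Wfikkn2 (adjusted p 0.0347 without control replicate 1). Lists gave 6 calls without control replicate 2, 7 without control replicate 3 or PRF replicate 2, and 8 without control replicate 1. Neighbours gave 2 without PRF replicate 2 and 3 without control replicate 3. Averaging a gene's probes gave 2 other WAP-domain genes and 3 neighbours, and spike-in scaling gave 8 neighbours. Same-numbered arrays deviated together with correlations of 0.145, -0.084 and 0.046, so the numbers were not taken to pair samples; with the replicate block 9422 probes were called, 5 of them members, and 2 other WAP-domain genes. Some values that were not called changed sign. Under median, quantile, no and spike-in scaling, within row 1, without PRF replicate 1 and without control replicate 2, Wfdc15a was at -0.024, -0.25, -0.11, -0.17, -0.25, -0.041 and -0.15, and Elane at -0.023, -0.025, -0.11, -0.17, -0.18, -0.085 and -0.085. Wfdc8 (A_55_P2146768) was at -0.27 under quantile and -0.020 under spike-in scaling; Wfdc18 at -0.052, -0.040 and -0.097 under quantile, no and spike-in scaling; Serpina3n at -0.047 under spike-in scaling; Lcn2 at 0.14 within row 1 and 0.071 without PRF replicate 3. Over the 6 fits that leave out an array Wfdc15a spanned -0.15 to 0.22, Elane -0.085 to 0.11 and Lcn2 -0.13 to 0.071. The median difference of all tested probes was 0.02 as reported and -0.18 under spike-in scaling. The cause of these changes was not tested. Signal over background limits Wfdc2, Wfdc5, Wfdc12 and Wfdc15b, which have no tested probe.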
